A study of Mus musculus with 4 samples.

Results

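The genes described are 6 members of the mouse cytotoxic granule, perforin (Prf1) and granzymes A, B, C, K and M (Gzma, Gzmb, Gzmc, Gzmk and Gzmm), in single cells of mouse lungs with small cell lung cancer (SCLC). They were taken by symbol from a feature table of 31053 genes, in which each has 1 entry, and were followed through natural killer (NK) cells, T cell subsets and 4 treatment groups. Barcodes were kept from 500 UMIs and 300 genes upwards if mitochondrial genes gave no more than 10% of their UMIs. Among the 14411 kept, Gzma UMIs were carried by 2280 barcodes, Prf1 by 1569, Gzmb by 1485, Gzmk by 192, Gzmm by 153 and Gzmc by 47. A UMI (unique molecular identifier) stands for 1 captured RNA molecule.

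Perforin and the granzymes are stored in secretory granules of NK cells and cytotoxic T cells. When such a cell binds a target, the granules fuse with its membrane, perforin forms pores in the target cell, and the granzymes, which are serine proteases, enter it and cut intracellular proteins. NK cells are known to hold granzyme and perforin RNA at rest, whereas naive T cells are known to raise most of these genes after activation.

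SCLC cells had been injected into the lung, tumours were followed by magnetic resonance imaging, and perfused whole lungs were digested, sorted for live cells and profiled with droplet 3' RNA libraries. The control mice received vehicle and isotype IgG. The anti-PD-1 mice received 200 µg of the antibody clone 29F.1A12 per mouse 3 times a week, the YKL-5-124 mice 10 mg/kg of this CDK7 inhibitor daily on weekdays, and the combination mice both. Each group is 1 library, so no difference between groups has a replicate check. Strain and number of animals per library are not stated in the labels.

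The libraries held 17329001 to 22950622 UMIs and, after removal of doublets, 2676 to 4014 cells each, 13985 in all, with medians of 1913 to 2193 UMIs per cell. The labels name the cell type as mouse SCLC, but the suspensions are of whole lung, and 2060 of the cells were SCLC tumour cell-like by their markers. Clusters named from markers held 1238 NK cell-like cells (Ncr1 UMIs in 82.5% and Cd3e in 1.29%) and 3264 T cell-like cells (Cd3g UMIs in 88.1% and Ncr1 in 1.47%). The barcodes of 2164 cells were kept in more than 1 library. Of the 1521 copies with fewer UMIs, 1397 lay in an unnamed shallow cluster, 11 among the NK cell-like and 30 among the T cell-like cells. Leaving those copies out changed no call below, and the log2 ratio of Gzma in T cell-like cells with anti-PD-1 was -1.56 with them and -1.57 without. The 6 members were left out of the clustering, but genes whose levels follow theirs were not.

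The genes lie on 3 chromosomes (GRCm38, GENCODE release M21). Gzma, a protease that cuts after basic residues, lies at chr13:113093825-113100981 and Gzmk, of the same specificity, at chr13:113171608-113225908, both on the minus strand. Gzmb, which cuts after aspartate and activates caspases, lies at chr14:56258838-56262260 and Gzmc at chr14:56231441-56234656, both on the minus strand in a cluster of 7 granzyme genes. Prf1 at chr10:61297833-61304680 and Gzmm, which prefers to cut after methionine or leucine, at chr10:79689020-79695261 are on the plus strand. None of the 50-base stretches in the last 400 bases of the members' transcripts was shared with another gene, whereas 9.12% to 17.9% were shared among Gzmd, Gzme, Gzmf, Gzmg and Gzmn of the chromosome 14 cluster. Gzmk overlaps Esm1 on the other strand, and the labels do not say whether the counting used strand.

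The start regions of Gzma, Gzmb, Gzmc and Prf1 are shown. They were chosen because these 4 members were more than 1.5-fold lower in summed T cell-like cells of every treated library than in control. Each window runs from 250 bases before to 50 bases after the annotated RefSeq start (GRCm38.p6), 5' to 3' on the strand of the gene, at chr13:113100932-113101231 (minus), chr14:56262285-56262584 (minus), chr14:56234608-56234907 (minus) and chr10:61297586-61297885 (plus). Capitals mark matches, on either strand, to TGACGTC (the CREB and ATF motif), TGANTCA (AP-1) and TGTGGT (RUNX), which 3.22%, 7.79% and 16.7% of 32544 such windows hold.
Gzma: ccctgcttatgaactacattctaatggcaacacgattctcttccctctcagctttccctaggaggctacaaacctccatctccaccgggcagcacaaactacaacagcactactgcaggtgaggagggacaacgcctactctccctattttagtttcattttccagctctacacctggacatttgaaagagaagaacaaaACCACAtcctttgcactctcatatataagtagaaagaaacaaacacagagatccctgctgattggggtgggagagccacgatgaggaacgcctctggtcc
Gzmb: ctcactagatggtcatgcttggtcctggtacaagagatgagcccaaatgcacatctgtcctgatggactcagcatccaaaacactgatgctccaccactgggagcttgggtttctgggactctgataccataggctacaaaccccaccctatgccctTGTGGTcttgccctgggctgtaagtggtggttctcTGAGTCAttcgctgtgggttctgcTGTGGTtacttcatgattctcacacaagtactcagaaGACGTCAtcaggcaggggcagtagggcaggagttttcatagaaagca
Gzmc: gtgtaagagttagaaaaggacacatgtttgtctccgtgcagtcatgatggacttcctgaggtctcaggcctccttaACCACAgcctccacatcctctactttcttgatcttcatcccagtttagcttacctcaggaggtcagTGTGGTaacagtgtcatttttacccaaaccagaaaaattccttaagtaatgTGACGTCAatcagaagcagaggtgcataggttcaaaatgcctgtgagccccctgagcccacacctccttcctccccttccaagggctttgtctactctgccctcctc
Prf1: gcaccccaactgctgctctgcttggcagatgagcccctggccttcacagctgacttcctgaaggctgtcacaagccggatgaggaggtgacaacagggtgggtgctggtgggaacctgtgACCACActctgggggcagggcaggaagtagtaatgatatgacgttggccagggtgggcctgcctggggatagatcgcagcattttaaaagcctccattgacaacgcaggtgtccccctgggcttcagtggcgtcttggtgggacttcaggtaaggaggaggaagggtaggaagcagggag
The Gzmb window holds 1 TGACGTC, 1 TGANTCA and 2 TGTGGT matches. The Gzmc window holds a palindrome that matches TGACGTC on both strands, with overlap, and 2 TGTGGT matches. The Gzma and Prf1 windows hold 1 TGTGGT match each. At the best shift without gaps, the Gzmc window was 63.6% to 64.3% identical to those of Gzmd, Gzme, Gzmf and Gzmg and 31.5% to that of Gzmb. The windows of Prf1, Gzmm, Gzma, Gzmk and Gzmn gave 30.0% to 34.7% in the same way. A match is a description of the letters and shows no binding.

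Levels are in CPM, a gene's UMIs divided by the UMIs of all genes, the usual counts-per-million scale, over all cells of a class in a library. Intervals are 95%, exact Poisson for levels, exact conditional binomial for ratios and exact binomial for shares, and cover counting error only. NK cell-like cells held 87.2% of all Gzma UMIs, 85.0% of Prf1 and 66.2% of Gzmb, and T cell-like cells held 91.4% of Gzmk, 90.3% of Gzmc and 62.0% of Gzmm. With 1238 NK against 3264 T cell-like cells, these shares also reflect cell numbers: in the combination Gzmm was at 11.6 CPM in NK and 10.3 CPM in T cell-like cells, and under anti-PD-1 4 of 7 Gzmc UMIs were in NK cell-like cells.

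Gzma was the most abundant member, at 16054 to 19491 CPM in NK cell-like cells over the 4 libraries. Among the T cell-like sub-clusters its ranges over libraries were 275 to 1569 CPM in T cells with NK receptors, 237 to 1279 in effector or memory CD8-like cells led by Gzmk and Ccl5, and 0 to 735 in regulatory T cell-like cells. These 3 ranges overlap, and they lie below that of NK cell-like cells. The sub-cluster led by Gzmk is called CD8-like by its markers, but 25.7% of its cells had Cd4 UMIs. Naive CD8-like cells, at 10.9 to 26.9 CPM, and naive CD4-like cells, at 0 to 23.8 CPM, overlapped with B cell-like cells at 17.003 to 19.3 CPM.

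Prf1, the pore former, was at 1344 to 1886 CPM in NK cell-like cells, and Gzmb at 1988 to 2317 CPM. The Prf1 ranges of T cells with NK receptors (45.8 to 156), of the effector or memory CD8-like cells led by Gzmk (32.6 to 93.1), of naive CD8-like (24.2 to 69.4) and of naive CD4-like cells (32.8 to 51.5 CPM) overlapped one another and lay above B cell-like cells (2.63 to 7.93 CPM). Gzmb was at 271 to 447 CPM in T cells with NK receptors and at 128 to 459 CPM in the CD8-like cells led by Gzmk, but at 5.39 to 13.6 CPM in naive CD8-like cells. Prf1 therefore stood apart from the granzymes in naive T cell-like cells, where Gzma and Gzmb were at or near the level of B cell-like cells and Prf1 was above it. With each cell thinned to 800 UMIs, Prf1 UMIs were found in 4.25% of naive CD8-like and 3.08% of naive CD4-like cells, against 0.273% of B cell-like cells.

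Free RNA, read from barcodes with 10 to 100 UMIs, held Gzma at 598 to 724 CPM, Gzmb at 85.6 to 111 and Prf1 at 38.0 to 60.7. It held 7.29 Prf1 UMIs per 100 Gzma UMIs, close to the 8.96 of NK cell-like cells, against 275 in naive CD4-like and 287 in naive CD8-like cells. Plasma cell-like cells had 224, so a high ratio of Prf1 to Gzma was not particular to naive T cell-like cells. Of the cells with a Gzma UMI, 30.1% were neither NK nor T cell-like, against 8.58% for Gzmb and 7.19% for Prf1. Median depths were 1688.5 UMIs in NK, 2112.5 in T and 1517 in B cell-like cells.

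**Figure D1:**
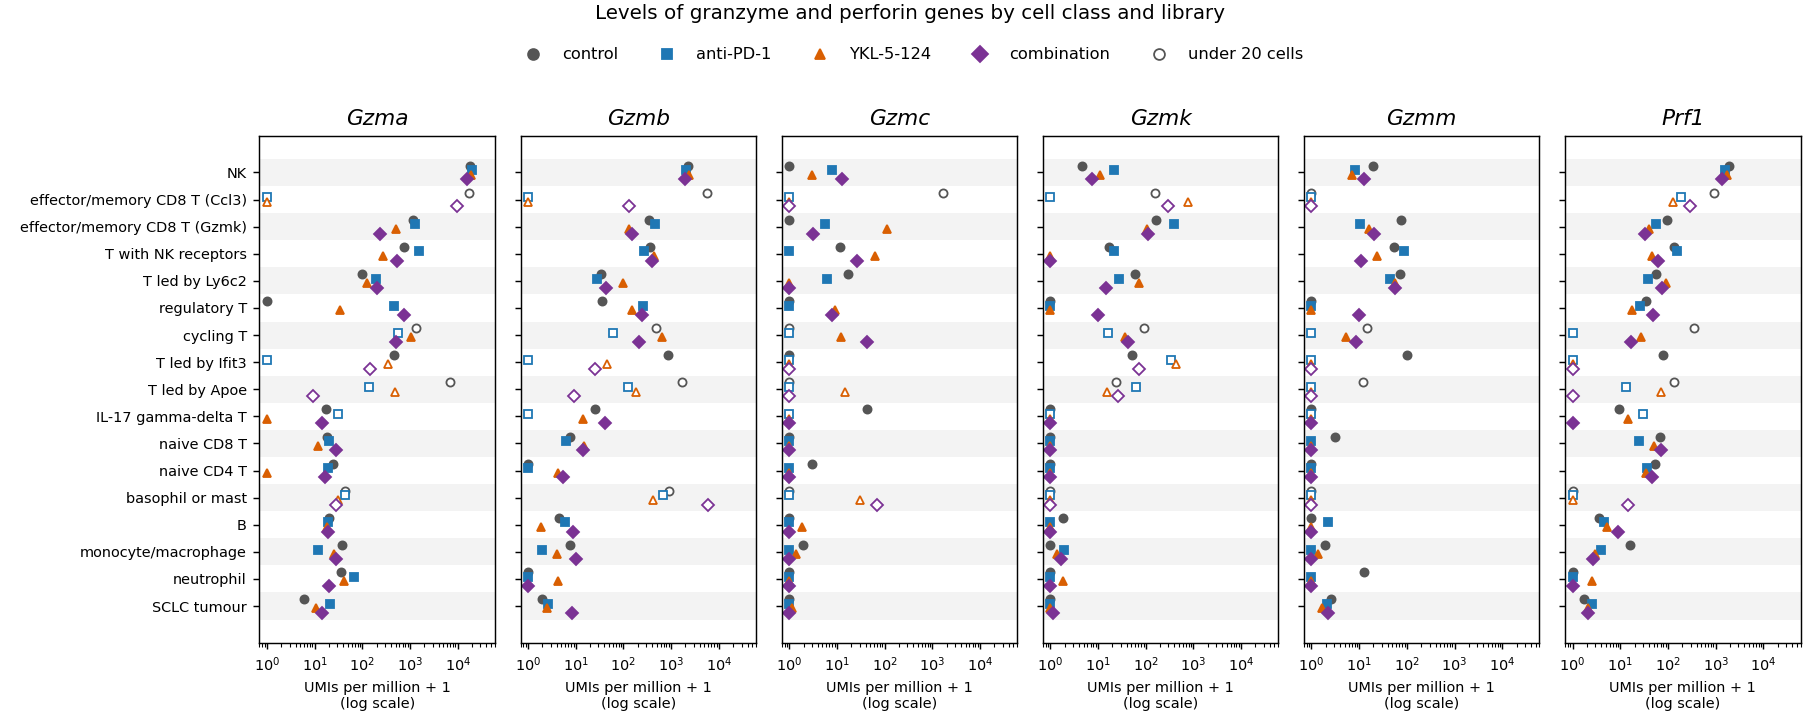
CPM plus 1 on a log axis of each member (panels) by class or T sub-cluster (lines) and library (symbols), with open symbols for sums of under 20 cells. Among sums of 20 cells or more, Gzma, Gzmb and Prf1 lie farthest right in NK cell-like cells, where the 4 libraries nearly coincide, while Gzmk and Gzmm lie farthest right in T sub-clusters and the libraries spread.

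In NK cell-like cells the 3 main cytotoxic genes kept similar levels in every library, and none differed from control by 1.5-fold. Gzma was at 18249 CPM (17892 to 18612) in control, 19491 (19129 to 19857) under anti-PD-1, 18872 (18492 to 19258) under YKL-5-124 and 16054 (15772 to 16338) under the combination. The combination library was lowest, at 0.880 of control (0.857 to 0.903), and the other treated libraries were slightly above control.

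Prf1 was at 1886 CPM (1772 to 2005) in control, 1581 (1479 to 1688) with anti-PD-1, 1750.0 (1636 to 1870) with YKL-5-124 and 1344 (1264 to 1428) with the combination. The combination had the lowest level, 0.713 of control (0.653 to 0.778), and was also below anti-PD-1 (0.850, 0.777 to 0.931) and YKL-5-124 (0.768, 0.701 to 0.841). Its log2 ratio to control stayed between -0.52 and -0.32 in every alternative tried, short of 1.5-fold. Gzmb was at 2300.0, 2068, 2317 and 1988 CPM in the control, the anti-PD-1, the YKL-5-124 and the combination library, so YKL-5-124 was level with control and the combination was 0.864 of it (0.802 to 0.932).

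Nearly every NK cell-like cell carried Gzma. At 800 UMIs per cell, Gzma was found in 98.3%, 97.2%, 97.3% and 96.5% of NK cell-like cells in the control, the anti-PD-1, the YKL-5-124 and the combination library, Prf1 in 69.6%, 63.6%, 66.2% and 63.3%, and Gzmb in 66.0%, 60.1%, 69.2% and 60.4%. At full depth the shares were 97.3% to 98.7% for Gzma, 79.3% to 90.3% for Prf1 and 74.3% to 82.1% for Gzmb. In thinned B cell-like cells the shares were 1.14% to 1.32% for Gzma, 0 to 1.02% for Prf1 and 0 to 0.489% for Gzmb. The amount per cell varied within the class: the median Gzma carrier held 28 to 36 UMIs and the highest 195, and the richest 347 of the 1238 cells held 50% of the Gzma UMIs.

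**Figure D2:**
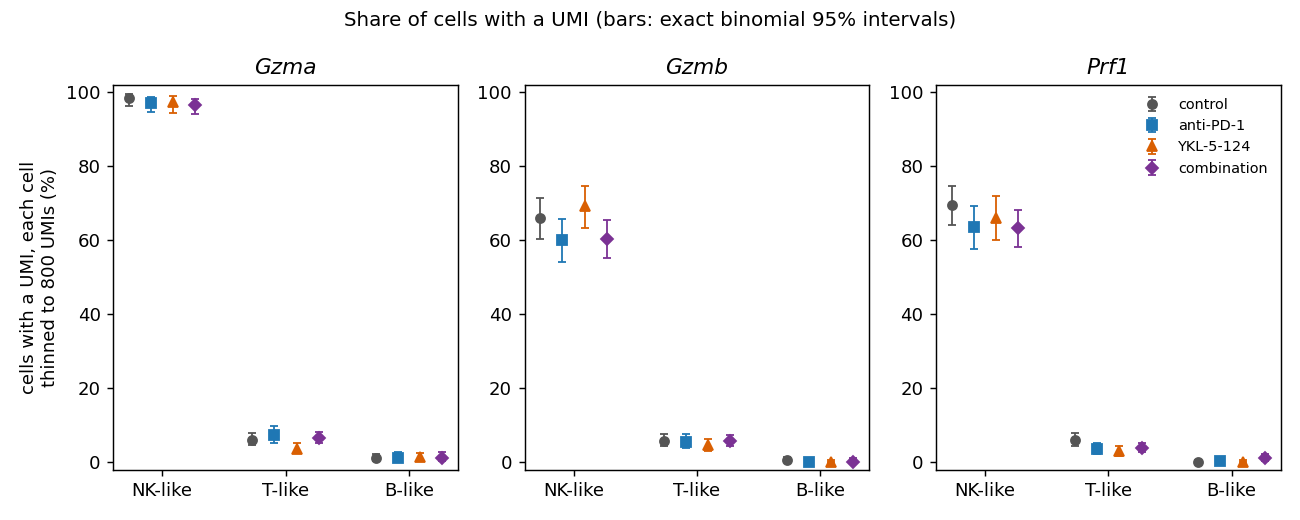
Percent of cells with at least 1 UMI, each cell thinned to 800 UMIs, for Gzma, Gzmb and Prf1 in NK, T and B cell-like cells by library, with exact binomial 95% intervals. NK cell-like cells lie between 60.1% and 98.3%, T cell-like cells between 2.91% and 7.28% and B cell-like cells at or below 1.32%.

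The other 3 granzymes were near the detection limit in NK cell-like cells. Gzmk had 2, 12, 5 and 5 UMIs in the control, the anti-PD-1, the YKL-5-124 and the combination library, Gzmm 10, 4, 3 and 9, and Gzmc 0, 4, 1 and 9. The 0 of Gzmc in control allows up to 5.52 CPM (3 counts), and the 9 UMIs of the combination, 11.6 CPM, came from 3 cells. By the rule of 1.5-fold on the log2 scale with 10 CPM added, which measures size only, 2 of the 5 measured members were past it with anti-PD-1, against 12.4% of 6805 genes of the class. They were Gzmk, higher (ratio 5.74, 1.28 to 52.8), and Gzmm, lower (0.382, 0.0875 to 1.33). With YKL-5-124, 1 of 5 was past it, Gzmm, lower (0.328, 0.0580 to 1.27), against 13.4% of genes, and with the combination 0 of 5, against 12.2%. The median log2 ratios of the 5 members were -0.15, 0.01 and -0.21, against 0.01, 0.03 and 0.00 for all genes. All of these calls rest on 12 UMIs or fewer per library, and the intervals of the Gzmm ratios include 1. Both genes reached the mean of 10 CPM needed to be measured only through the library where they were highest. That was anti-PD-1 for Gzmk (21.1 CPM) and control for Gzmm (18.4 CPM), so the directions of these calls are not independent of the filter. Against the single agents, the combination had 1 of 5 members past 1.5-fold relative to anti-PD-1 (Gzmk, 5 UMIs against 12, with 10.6% of genes past it) and 0 of 5 relative to YKL-5-124 (10.0% of genes).

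Summed T cell-like cells showed another picture: Gzma, Gzmb, Gzmc and Prf1 were past 1.5-fold lower than control in all 3 treated libraries, and Gzmk was higher with anti-PD-1. Gzmm was below control in all 3 too, but within 1.5-fold with anti-PD-1. The 3 comparisons share the control library. Members past 1.5-fold were 5 of 6 under anti-PD-1 (4 lower, 1 higher), 5 of 6 under YKL-5-124 and 5 of 6 with the combination (all lower), against 3.04%, 6.70% and 7.08% of 6808 genes. Genes past it downwards were 0.808%, 0.808% and 1.15%, and upwards with anti-PD-1 2.23%. The members' median log2 ratios were -1.38, -1.08 and -1.37, against 0.03, 0.09 and 0.07 for all genes. A few cells of the control library, described below, held most of its Gzma, Gzmb and Gzmc.

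Gzma was at 1286 CPM (1237 to 1336) in control, 429 (397 to 464) under anti-PD-1, 359 (333 to 386) under YKL-5-124 and 402 (380 to 425) under the combination. Control stood alone and the 3 treated libraries lay close together, at 0.334 (0.306 to 0.364), 0.279 (0.257 to 0.304) and 0.313 (0.292 to 0.334) of it. The share of cells carrying Gzma did not follow this order: at 800 UMIs per cell it was 6.11% (4.597 to 7.94) in control, 7.28% (5.30 to 9.71), 3.61% (2.37 to 5.24) and 6.61% (5.17 to 8.31), lowest with YKL-5-124, with an interval that overlaps that of control.

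Gzmb was at 425 CPM (397 to 455) in control, 121 (104 to 140) under anti-PD-1, 232 (211 to 254) under YKL-5-124 and 144 (131 to 157) under the combination. Its thinned shares were 5.76%, 5.55%, 4.58% and 5.84%, within one another's intervals. Prf1 was at 116 CPM (101.8 to 132), 45.01 (34.9 to 57.2), 40.6 (32.2 to 50.6) and 43.8 (36.9 to 51.7), with thinned shares of 5.99% (4.49 to 7.80), 3.47% (2.13 to 5.30), 2.91% (1.81 to 4.42) and 3.79% (2.71 to 5.15). For Prf1 the control library was thus highest both in level and in the share of carrying cells, though the intervals of the shares overlap in part.

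Gzmc, a granzyme of mouse that has no human counterpart, was at 75.9 CPM (64.3 to 88.9) in control, 1.34 (0.163 to 4.85) with anti-PD-1, 20.8 (14.9 to 28.2) with YKL-5-124 and 12.1 (8.62 to 16.6) with the combination. Few cells lay behind these sums: 8, 2, 8 and 9 T cell-like cells carried it, with 152, 2, 41 and 39 UMIs. In each library other than anti-PD-1 the 5 highest cells held 89.7% to 97.4% of the UMIs.

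Gzmm was at 22.5 CPM (16.4 to 30.1), 15.4 (9.79 to 23.2), 9.14 (5.42 to 14.4) and 10.3 (7.06 to 14.4). It was past 1.5-fold lower with YKL-5-124 (0.407, 0.222 to 0.717) and the combination (0.457, 0.282 to 0.732), on 18 and 33 UMIs against 45.

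**Figure D3:**
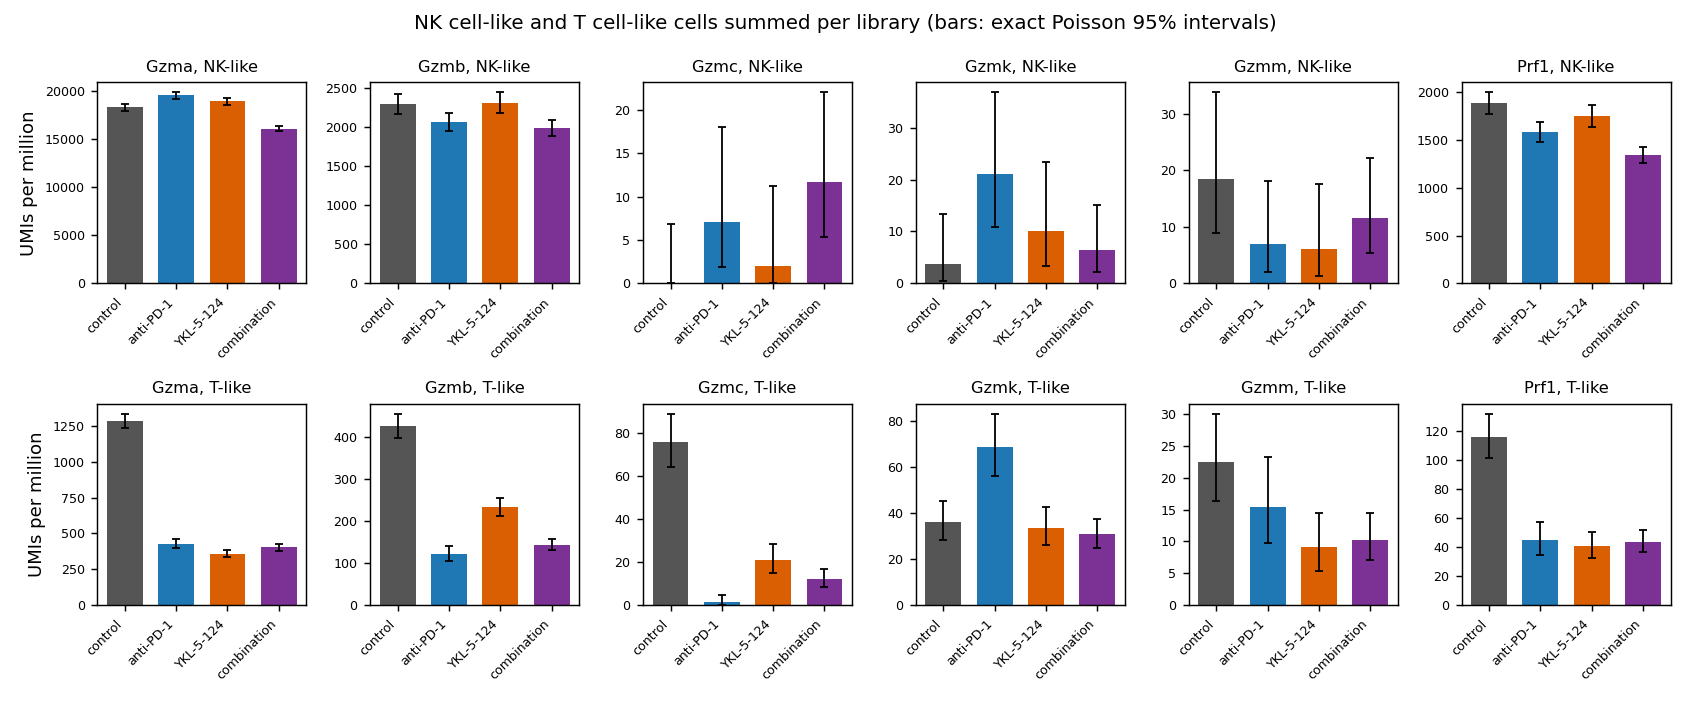
CPM of each member in summed NK (top) and T (bottom) cell-like cells of the 4 libraries, with bars from 0 and exact Poisson 95% intervals. In T cell-like cells control is highest for every member but Gzmk, which is highest with anti-PD-1 at 68.5 CPM, while NK cell-like cells show nearly level bars for Gzma, Gzmb and Prf1.

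Gzma in T cell-like cells sat in a small number of cells. Cells with at least 10 Gzma UMIs numbered 27 of 870 in control, 17 of 602 under anti-PD-1, 11 of 735 under YKL-5-124 and 22 of 1057 under the combination, and held 95.8%, 84.5%, 86.4% and 82.9% of the Gzma UMIs of the class. All 77 had UMIs of a Cd3 gene, 41 had Cd8a UMIs and 5 had UMIs of the B cell gene Cd79a. NK receptor genes were also found in them: 49 had Klrd1 UMIs, 34 Klre1, 18 Klrb1c and 9 Ncr1, and 29 had at least 2 UMIs of Ncr1, Klrb1c and Klre1 together. The part of these 77 cells as a set in the differences between libraries was not tested. Of the alternatives given below, T cells set by marker UMIs kept 48 of the 77, and another left out the 5 richest cells of each library. The richest 4, 7, 3 and 4 cells held 50% of the Gzma UMIs, and the highest cell held 477, 92, 167 and 239 UMIs. The highest cell of control thus held more Gzma than any other T cell-like cell.

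**Figure D4:**
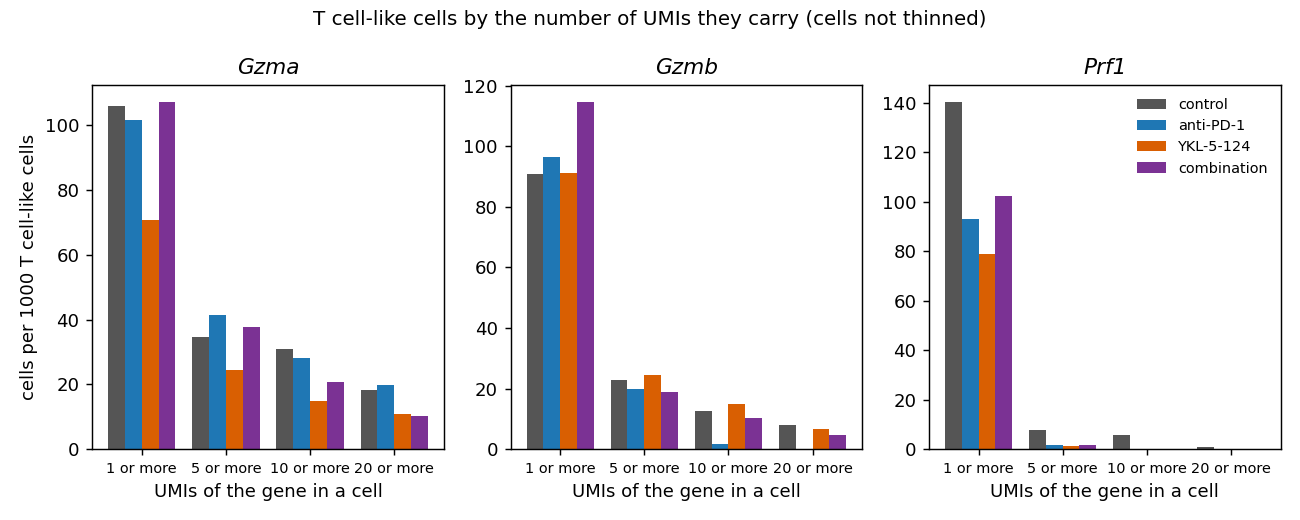
T cell-like cells per 1000 with at least 1, 5, 10 or 20 UMIs of Gzma, Gzmb or Prf1, at full depth, by library. Control (92 of 870 cells) is not the highest library in cells with 1 or more Gzma UMIs, where the combination has 113 of 1057, and Prf1 reaches 10 UMIs in control cells alone (5 cells).

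A sub-cluster of 22 effector or memory CD8-like cells, led by the chemokine genes Ccl3 and Ccl4 beside Gzmc, Gzma and Gzmb, carried much of the control level. It held 12 cells of control, 2 of anti-PD-1, 1 of YKL-5-124 and 7 of the combination, none with a shared barcode. The 12 control cells, 1.38% of the T cell-like cells of that library, held 92.8% of its Gzmc UMIs, 56.5% of Gzmb, 55.7% of Gzma and 33.5% of Prf1. All 12 had UMIs of Cd8a and of a Cd3 gene, 10 had UMIs of the NK receptor gene Klre1, and none had Ncr1 or Klrb1c. Their median depth was 5957 UMIs. Summed, they reached 17154 CPM of Gzma, 5754 CPM of Gzmb and 933 CPM of Prf1, so that Gzma was near its NK level, Gzmb above it and Prf1 below it.

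Even within these 12 cells the genes were uneven. Gzma was found in 6 of them, with 77.4% of its UMIs in the 3 highest, and Gzmb in 7, with 65.3% in the highest. One control cell of 18172 UMIs held 477 Gzma, 314 Gzmb, 41 Gzmc and 29 Prf1 UMIs together with 55 Gzmd, 31 Gzme and 7 Gzmf UMIs, and another of 4172 UMIs held 94 Gzma, 110 Gzmb, 85 Gzmc and 13 Prf1 UMIs. Whether cells of this depth are doublets that were not removed was not tested. Most UMIs of Gzmd (55 of 55), Gzme (31 of 33) and Gzmf (7 of 10) in T cell-like cells were in the first of these cells, and reads could be split among these 3 genes by their shared sequence. Gzmc also occurred with little of the other granzymes, as in a combination cell of 20913 UMIs outside the sub-cluster with 26 Gzmc, 3 Gzma and 3 Gzmb UMIs.

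Without this sub-cluster Gzma was at 595, 432, 360.4 and 311 CPM in the control, the anti-PD-1, the YKL-5-124 and the combination library, so control remained highest, but with anti-PD-1 the difference fell short of 1.5-fold (log2 ratio -0.45). Gzmb was then at 193, 122, 233 and 144 CPM and Gzmc at 5.73, 1.35, 20.9 and 12.2 CPM, so that with YKL-5-124 both were above control, Gzmc by more than 1.5-fold (log2 ratio 0.97). Prf1 was at 80.7, 44.0, 40.3 and 41.4 CPM, still past 1.5-fold lower in every treated library. Of the 4 members past 1.5-fold lower in every treated library, Gzma and Prf1 kept their direction in all 17 alternatives tried. Gzmb and Gzmc under YKL-5-124, and Gzmc under the combination, reversed without this sub-cluster and in another alternative. In that other, with T cells set by marker UMIs, the calls of Prf1 were lost in all 3 treated libraries (log2 ratios -0.57, -0.44 and -0.49) and that of Gzma under the combination (-0.30). T cells set in this way also include cells of other clusters, as given below.

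**Figure D5:**
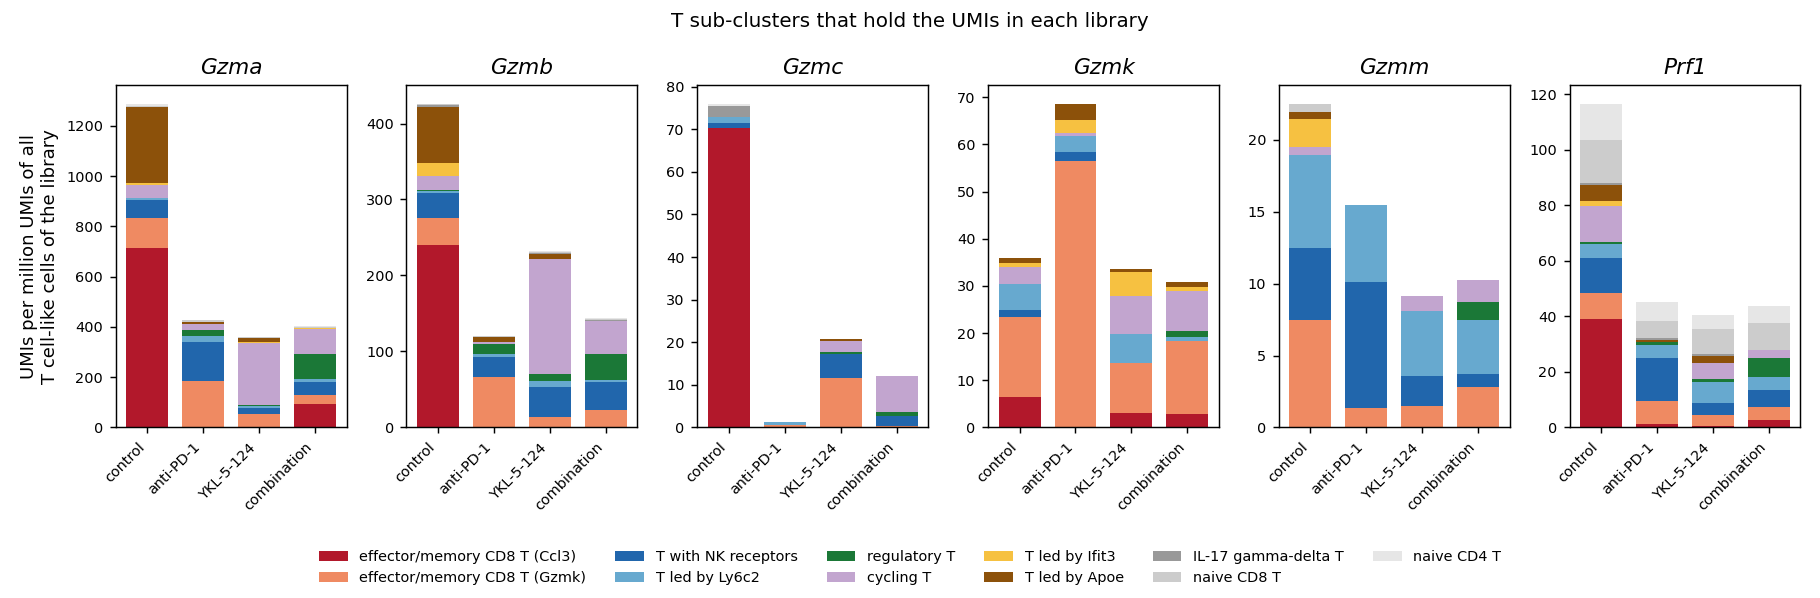
Contribution in CPM of each T sub-cluster (its UMIs of the gene over the UMIs of all genes in all T cell-like cells), stacked by library, so that a bar's height is the CPM of the whole class. The control bars of Gzma, Gzmb and Gzmc rest on the sub-cluster led by Ccl3 (55.7%, 56.5% and 92.8%), the anti-PD-1 bar of Gzmk on the CD8-like sub-cluster led by Gzmk (82.4%), and the YKL-5-124 bars of Gzma and Gzmb on cycling cells (68.6% and 65.2%).

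Other sub-clusters carried the rest in a way that differed between libraries. In control, 18 cells of a sub-cluster led by Apoe and B cell genes such as Cd79a, which was left unnamed, held 23.4% of the Gzma UMIs. After thinning, 14 of these 18 cells carried no member. Without this sub-cluster the log2 ratios of Gzma were -1.19 with anti-PD-1 and -1.51 with YKL-5-124. With YKL-5-124, 49 cycling cells held 68.6% of the Gzma and 65.2% of the Gzmb UMIs. After thinning, 41 of these 49 cells carried no member, so these shares do not describe most cycling cells. Without the cycling sub-cluster the log2 ratio of Gzma with YKL-5-124 was -3.04. With the combination, 125 regulatory T cell-like cells held 25.04% of the Gzma UMIs (204 of 324 in 1 cell).

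Gzmk, a granzyme known from memory-type CD8 T cells, was the member that was higher with anti-PD-1. It was at 35.9 CPM (28.1 to 45.3) in control, 68.5 (55.9 to 83.2) with anti-PD-1, 33.5 (25.9 to 42.6) with YKL-5-124 and 30.8 (25.004 to 37.5) with the combination. The anti-PD-1 library stood alone, at 1.91 times control (1.40 to 2.62), and the combination did not share the higher level, at 0.449 of anti-PD-1 (0.337 to 0.598). No T cell-like cell held more than 7 Gzmk UMIs, and 40, 42, 28 and 46 cells carried it, so no single cell set the level. The log2 ratio of anti-PD-1 to control, 0.77, stayed between 0.68 and 0.96 in all 17 alternatives.

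The higher level with anti-PD-1 was in the CD8-like sub-cluster that Gzmk leads. There Gzmk was at 167 CPM (115 to 233) in control, 394 (314 to 487) with anti-PD-1, 103 (63.8 to 158) with YKL-5-124 and 109 (80.8 to 143) with the combination, and thinned cells carried it in 11.1%, 21.8%, 4.21% and 7.69%. It held 82.4% of the T cell-like Gzmk UMIs with anti-PD-1, against 47.2%, 31.8% and 50.5% in control, YKL-5-124 and the combination. This sub-cluster is mixed and also holds CD4 T cells: Cd8a UMIs were found in 28.6% of its cells, Cd8b1 in 37.0% and Cd4 in 25.7%. In naive CD8-like cells these shares were 57.7%, 88.9% and 0.421%. Among T cell-like cells sorted instead by their own UMIs, with Cd8a or Cd8b1 and no Cd4, Gzmk was at 52.3, 108, 52.9 and 59.6 CPM, 2.06 times control with anti-PD-1 (1.42 to 3.001). In the sub-cluster led by Gzmk, the other tryptase gene Gzma was at 1161, 1279, 506 and 237 CPM, so it was level with control under anti-PD-1 and lower in the other 2 treated libraries.

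In the same CD8 cells defined by UMIs, Gzma was at 2039, 529, 567 and 561 CPM and Prf1 at 164, 44.95, 51.8 and 65.2 CPM in the control, the anti-PD-1, the YKL-5-124 and the combination library. Control was the highest. Of its 12 cells in the sub-cluster led by Ccl3, all carry Cd8a, but 2 also carry Cd4 and so fall outside these CD8 cells. The rest of the 12, among them the cell with 477 Gzma UMIs, are included. The order is therefore not independent of that sub-cluster, and levels of these CD8 cells without it were not computed. T cells with NK receptors gave another order for Gzma, 763 CPM in control, 1569 under anti-PD-1, 275 under YKL-5-124 and 541 under the combination.

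Regulatory T cell-like cells carried Gzmb, which is known in regulatory T cells as a means of killing effector cells, in 11.7% of thinned cells over all libraries, close to the 11.9% of the CD8-like cells led by Gzmk, and carried Gzma in 4.06%. This sub-cluster may be mixed: Foxp3 UMIs were found in 28.2% of its cells, Cd4 in 43.1%, Cd8b1 in 15.3% and Cd8a in 8.33%. Whether its Gzmb carriers were regulatory T cells was not tested. Its Gzmb level was 33.9 CPM in control (2 UMIs in 22 cells), 256 under anti-PD-1 (21 UMIs in 25 cells), 150 under YKL-5-124 (18 UMIs in 44 cells) and 250 with the combination (110 UMIs in 125 cells). Control was lowest, but on 2 UMIs, and the ratios to it were 7.56 (1.85 to 66.5), 4.42 (1.057 to 39.3) and 7.37 (1.99 to 61.7). Gzma had 0 UMIs there in control, which allows up to 50.8 CPM, 4 with YKL-5-124, and 37 and 324 with anti-PD-1 and the combination, where 1 cell held 33 and 204 of them. T cells with IL-17 type gamma-delta features had no UMI of Gzmk or Gzmm in 134 cells, and held Gzma at 13.1, Gzmb at 22.9 and Prf1 at 9.82 CPM over all libraries. The Gzmm ranges of an unnamed sub-cluster led by Ly6c2 (42.8 to 70.3), of T cells with NK receptors (9.77 to 87.9) and of the CD8-like cells led by Gzmk (9.37 to 73.5 CPM) overlapped.

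Members occurred together more in NK than in T cell-like cells. Of 1220 thinned NK cell-like cells, 46.7% carried at least 3 members, and Prf1 was found in 72.8% of those with Gzmb and in 52.9% of those without. The share with at least 3 members was 49.8%, 43.7%, 50.8% and 43.7% in the control, the anti-PD-1, the YKL-5-124 and the combination library. Of 3177 thinned T cell-like cells, 85.7% carried none and 26 carried 3 or more. The T cell-like carriers of Gzma had Gzmb in 34.6%, and the other T cell-like cells in 3.65%, while 18 cells carried both Gzma and Gzmk, 9.57% of the 188 with Gzma and 18 of the 68 with Gzmk. Each class mixes subtypes of cells, whose part in these shares was not tested.

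Outside lymphocytes, Gzmb was found in basophil- or mast-like cells, 11, 11, 11 and 16 per library, which carried Mcpt8 and Fcer1a. It was at 907, 678, 412 and 5970 CPM in the control, the anti-PD-1, the YKL-5-124 and the combination library, from 21, 16, 14 and 431 UMIs. The high value of the combination came from 12 of 16 cells, of which 3 held 81.0% of the UMIs. Prf1 was almost absent from them, with 1 UMI in 49 cells. Plasma cell-like cells, with a median of 13490 UMIs, held Prf1 at 38.6 CPM and Gzmb at 2.76 CPM.

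Genes that work with the granule are read against 3.04%, 6.70% and 7.08% of all genes past 1.5-fold either way in summed T cell-like cells. A list of granule contents and processing held 11 genes, among them the surface receptor genes Crtam and Slamf7. None of the 11 was past 1.5-fold with anti-PD-1 or the combination. With YKL-5-124 1 was, Cst7, an inhibitor of granule cathepsins, at 85.8 CPM against 152. The median log2 ratios of these 11 genes were -0.02, -0.07 and -0.04 under anti-PD-1, under YKL-5-124 and under the combination. Among 10 genes of granule transport and fusion, 1, 1 and 2 were higher and 1, 0 and 0 lower. Stx11, a syntaxin needed for granule fusion, was higher in each treated library, at 26.9, 35.5 and 42.3 CPM against 11.5. Of 5 measured granzyme inhibitors 1 was lower in each, Serpinb6b with anti-PD-1 (68.5 against 170 CPM) and YKL-5-124 (97.5 CPM) and Serpina3g with the combination (33.6 against 57.9 CPM). None of 8 measured transcription factors of the cytotoxic program was past 1.5-fold in any treated library.

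Among 7 death ligands and cytokines in T cell-like cells, 2, 2 and 4 were lower and 1, 0 and 1 higher, where 0.808%, 0.808% and 1.15% of all genes were lower. Ccl3 was at 130 CPM in control against 21.5, 5.59 and 43.2, and Ccl4, a chemokine of activated lymphocytes like Ccl3, at 277 against 119, 50.8 and 109. Both lead the small sub-cluster described above, so their values are not independent of it. Il2ra, the alpha chain of the IL-2 receptor, was the 1 of 6 receptor genes that was higher with YKL-5-124 (38.6 against 15.5 CPM) and with the combination (32.9 CPM). Regulatory T cell-like cells, which are known to carry it, were 2.53%, 5.99% and 11.8% of the T cell-like cells in control, YKL-5-124 and the combination, and their part in this was not tested. In none of these comparisons were Gzmd, Gzme, Gzmf, Gzmg or Gzmn above the minimum of 10 CPM.

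In NK cell-like cells, where granzymes and perforin were nearly level, some chemokine genes were past 1.5-fold lower with the inhibitor. They were Ccl3 and Ccl4 in both libraries that received it, and Xcl1 with YKL-5-124. With the combination Xcl1 fell just short of this, at 0.688 of control (0.598 to 0.792). With anti-PD-1 Ccl4 was also below control, at 0.779 (0.727 to 0.836), and Xcl1 above it, at 1.39 (1.22 to 1.58). Ccl5 was within 1.5-fold in both libraries with the inhibitor. Of 6 measured death ligands and cytokines, 0 were lower under anti-PD-1, 3 under YKL-5-124 and 3 under the combination, where 12.4%, 13.4% and 12.2% of all genes were past 1.5-fold either way, and their median log2 ratios were -0.18, -0.56 and -0.71, against 0.01, 0.03 and 0.00 for all genes. Ccl3 was at 773 CPM in control, 439 with YKL-5-124 and 259 with the combination (ratio 0.334, 0.281 to 0.397), and Ccl4 at 3278, 1861 and 1631. Xcl1 was lower with YKL-5-124 (356 against 748 CPM) and Ifng, the gene of interferon gamma, with the combination (94.4 against 182 CPM). Among 9 transcription factors, Zeb2 was lower with YKL-5-124 and the combination (151 and 136 against 236 CPM), Eomes higher with the combination (168 against 97.6 CPM), and Prdm1 lower with anti-PD-1 (24.6 against 42.4 CPM). In the list of granule contents and processing, 10 genes were measured. With the combination the surface receptor genes Crtam and Slamf7 of that list were lower. Lamp1 was higher there, on 21 against 8 UMIs (ratio 1.84, 0.784 to 4.81). Crtam was also lower with YKL-5-124, on 5 against 17 UMIs. Each of the other 3 lists had 0 or 1 gene past 1.5-fold in each comparison with control. Among the granzyme inhibitors Serpinb9b alone was called, higher with YKL-5-124 at 326 against 190 CPM.

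Over 65 sums of a class or T sub-cluster in a library, each with at least 20 cells, the genes most like each member in log2 level were found among 8757 genes. These correlations are descriptions, since sums of 1 library share depth and free RNA. Gzma was most like Gzmb (Pearson's r 0.895), Klrc2, Tbx21, Klre1 and Klrc1. Gzmb was most like Tbx21 (0.929), a transcription factor of type 1 lymphocytes, then Gzma, Ifng, Fasl and Klrc1. Prf1 was most like Eomes (0.846), Gm19585, Fasl, Klrc2 and Klre1. Gzmk, Gzmm and Gzmc had lower coefficients: Gzmk with Crtam (0.744), Wdr95, Gzmm, Ubash3a and Cd160, Gzmm with Wdr95 (0.793), Crtam, Klrc1, Samd3 and Cd160, and Gzmc with Cd160 (0.526), Fasl, Cxcr3, Gna15 and Tcrg-C2.

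Set against the single agents, the combination differed in few members of T cell-like cells. Relative to anti-PD-1, 2 of 6 were past 1.5-fold, Gzmc higher (9.02, 2.34 to 77.1, on 39 UMIs against 2) and Gzmk lower, against 5.43% of genes. Relative to YKL-5-124, 1 of 6 was past it, Gzmb lower (0.619, 0.542 to 0.706), against 1.60% of genes. Gzma and Prf1 lay within 1.5-fold of both, with ratios of 0.937 (0.851 to 1.03) and 0.974 (0.723 to 1.32) to anti-PD-1 and 1.12 (1.02 to 1.23) and 1.08 (0.814 to 1.44) to YKL-5-124.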

How the data were processed

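Single-cell 3' RNA libraries of 4 groups, 1 library each, were used. Each deposited matrix gives unnormalized UMI counts, all whole, for every gene and for barcodes that need not be cells. Per the submitters' processing notes they were made with bcl2fastq and Cell Ranger, with software version 3.0.0 per the file headers. Their build is entered as hg19, whereas the gene IDs are of mouse, so the build behind the counts is unknown here. Of the IDs, 30934 were found in GENCODE M21, which gave gene positions, and 119 were not. Start regions are from RefSeq.

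Doublet scores came from Scrublet (Scanpy 1.11.5), whose own threshold called 2 to 5 barcodes per library, so 60 to 138 barcodes per library with the top scores (0.8% for each 1000 cells) were left out instead. Cells of all libraries were clustered together from 2000 variable genes other than the members, 15 neighbours over 30 principal components and Leiden resolution 1 (igraph 0.11.9, leidenalg 0.10.2), and T cell-like cells once more. A cluster took the name whose markers were highest, with at least 3 of them in at least 10% of its cells and 2-fold above other clusters. The code ran in Python 3.11.15 with pandas 2.3.3, SciPy 1.17.1, Matplotlib 3.10.9 and NumPy 2.4.6, and the steps were checked on simulated counts.

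Levels in CPM came from sums over the cells of a class in a library. A gene was measured where its mean level over libraries reached 10 CPM, log2 ratios used a pseudocount of 10 CPM, and a gene was called past 1.5-fold. With 1 library per group no test was run. For shares, cells were thinned to 800 UMIs, which left out 18 NK and 87 T cell-like cells. The 6 members are named throughout, with the 5 genes most like each (at least 50 CPM in 1 sum) and up to 4 genes per list with the largest ratios, some of which are left out for length. Cells singled out by their UMIs, the basophil- or mast-like and plasma cell-like values, Gzmd, Gzme and Gzmf in single cells and the sub-clusters named in the text for their shares were chosen after their values were seen. The members and lists were chosen with earlier results of these data known. Alternatives changed filters, clustering, class definition, pseudocount, scaling, depth and the cells included.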

Additional observations from a re-analysis of the deposited data

Results flagged for a closer look

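Gzma was picked out because its ratio to control pointed one way in NK cell-like cells and the other way in T cell-like cells of the same library. With anti-PD-1 the ratio was 1.07 in NK and 0.334 in T cell-like cells, and with YKL-5-124 it was 1.03 and 0.279. The difference between the classes was not tested, since each group is 1 library, and the NK ratios lie within 1.5-fold of control. In control, 62.3% of the T cell-like Gzma UMIs were in 63 cells that carry at least 2 UMIs of the NK receptor genes Ncr1, Klrb1c and Klre1 or lack UMIs of a Cd3 gene, against 45.1% in 53 cells with anti-PD-1, 34.1% in 57 cells with YKL-5-124 and 15.2% in 79 cells with the combination. Their part in the result was not tested on its own. The alternative given below that leaves them out also takes in cells of other classes.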

How the results depend on the processing

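No paired analysis was possible because each group is 1 library and the groups share only replicate number 1. Over 17 alternatives, 424 of 516 member ratios stayed within their counting interval, 86 moved and 6 reversed. Only ratios past 1.5-fold as reported could count as reversed, and alternatives on T sub-clusters were run for T cell-like cells only. The ratio of Gzmk with anti-PD-1 in T cell-like cells stayed past 1.5-fold in each alternative. With classes set by marker UMIs per cell, where T cells need a Cd3 UMI and at most 1 UMI of Ncr1, Klrb1c and Klre1, 9 of the 12 control cells of the sub-cluster led by Ccl3 drop out by construction. This definition also takes in other cells. Of its 3772 T cells, 3012 were T cell-like by cluster, while 215 were monocyte- or macrophage-like and 174 SCLC tumour cell-like. The parts of the cells left out and of those taken in were not tested apart. The count of members past 1.5-fold in T cell-like cells was then 3 under anti-PD-1, 1 under YKL-5-124 and 0 under the combination, in place of 5 each, and the log2 ratios of Gzmb and Gzmc with YKL-5-124 (0.15 and 0.22) and of Gzmc with the combination (0.56) were reversed. Without the sub-cluster led by Ccl3 the counts were 3 (2 lower) with anti-PD-1, 4 with YKL-5-124 (3 lower, and Gzmc now past 1.5-fold higher) and 3 with the combination, and the same ratios were reversed, at 0.26, 0.97 and 0.50. That sub-cluster was picked by its Gzmc level, so the fall of Gzmc in control was built in. Without the 5 cells richest in each member they were 3, 2 and 2. With anti-PD-1 the T cell count was also 3 with cells weighted equally and 3 at 800 UMIs per cell.

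In NK cell-like cells the count of 2 with anti-PD-1 became 1 with marker UMI classes and 0 with cells weighted equally, at 800 UMIs per cell or without the 5 richest cells. The count of 1 with YKL-5-124 became 0 under these last 3, 2 with a minimum of 1000 UMIs or a pseudocount of 1 CPM, and 2 with the B cell-like level subtracted. The count of 0 with the combination became 2 with a pseudocount of 1 CPM and 1 with no filter on low levels. The cause of these moves was not tested. Subtracting the B cell-like level and leaving out shared barcodes, the sub-cluster led by Apoe or the cycling cells were alternatives chosen after seeing the data. Scaling by the median of gene ratios shifted log2 ratios of T cell-like cells with YKL-5-124 by 0.11. Depth limits Gzmc, Gzmk and Gzmm in NK cell-like cells, where 3 UMIs are 5.52 CPM in control.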
